A study of Caenorhabditis elegans with 12 samples.

Results

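Lysozymes are secreted enzymes that cut the peptidoglycan wall of bacteria, and 10 lysozyme genes of Caenorhabditis elegans are described here by their mRNA level in 6 groups of worms. They were taken by gene name from a table of 46245 genes and comprise 7 genes of the protist type (lys-1, lys-2, lys-4, lys-5, lys-6, lys-7 and lys-10) and 3 of the invertebrate type (ilys-2, ilys-3 and ilys-5). All 10 names were found. By the labels, the worms of every group carried the temperature-sensitive mutation glp-4(bn2), which limits growth of the germ line. They were harvested whole at 20 °C on day 1 of adulthood. They had been fed bacteria with the empty vector L4440 (group L4440), with a clone against hda-1, which encodes a class I histone deacetylase, or with a clone against dve-1, which encodes a homeodomain factor that acts in the unfolded protein response of mitochondria. In 3 further groups, bacteria against atp-2, which encodes a subunit of the mitochondrial ATP synthase, were added, by the labels 30 h later (L4440+atp-2, hda-1+atp-2 and dve-1+atp-2). The study's text speaks of wild-type animals and gives another timing, and which applied was not settled. Double-stranded RNA given in food acts in most tissues of the worm, so no group is restricted to the intestine or to another tissue. The study asked which transcripts that respond to mitochondrial stress need HDA-1 or DVE-1.

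A worm eats bacteria, and lysozymes both digest this food and take part in the defence against bacteria that infect the gut. The protist-type enzymes resemble those of amoebae, whereas the invertebrate-type enzymes belong to the family known from molluscs and annelids. Many C. elegans lysozyme genes are expressed in the intestine or the pharynx, and several are used as readouts of the insulin-like pathway through the transcription factor DAF-16 or of the p38 pathway through the kinase PMK-1.

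The 12 libraries, 2 per group, were deposited as 1 FPKM value per gene and group (a fragment count divided by transcript length and by library depth), with both libraries combined. No spread between libraries is left, so none of the differences below could be tested, neighbouring levels in any order given cannot be held against a spread, and calls describe sizes in these 6 columns. The FPKM of a column summed to between 917209 and 980796, and 16707 to 18262 genes were above 0. From the steps between low values, 5 FPKM on a transcript of 1 kb stood for an estimated 80.4 to 92.8 fragments. Among the RNAi targets, dve-1 read 25.4 FPKM in L4440 and 11.1 in dve-1 (43.8%), but 19.6 in L4440+atp-2 and 14.3 in dve-1+atp-2 (73.1%, not called). The level of atp-2 with its RNAi was 54.6% of that without it in L4440, 38.8% in dve-1 and 64.3% in the columns labelled hda-1. The hda-1 signal went against its label, with 18.8 FPKM in L4440, 1207 in hda-1 and 811 in hda-1+atp-2. Both groups are therefore written as the columns labelled hda-1, and directions drawn from them are not assigned to a reduced HDA-1. Whether HDA-1 was reduced in these worms cannot be read from the FPKM. In separate experiments on hda-1 RNAi, the study measured hda-1 mRNA by qRT-PCR and the level of an HDA-1-GFP fusion protein. In whole worms, fewer cells of a type and less RNA per cell cannot be told apart.

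Each FPKM value was raised by a pseudocount of 1 before log2 ratios were formed, which understates the ratios of low genes, and the median of all kept genes was subtracted (centred log2 ratio). That median lay between 0.02 and 0.22 in the 7 comparisons. Kept genes had a mean of at least 1 FPKM, which left 13337 genes. Calls, higher or lower, required a ratio of at least 2-fold before centring and 5 FPKM in the higher column. Of the 10 lysozyme genes, 9 were kept and lys-5 was not, and lys-6, lys-10, ilys-2 and ilys-3 were kept only through the columns in which they were high, so that all counts below are over the 10 genes.

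Within the 10 genes, the mRNA of the L4440 worms came almost entirely from 4, and the genes differed widely in how much they varied across the groups. In L4440, lys-1, lys-2, lys-7 and ilys-5 stood at 1776, 1504, 979 and 583 FPKM, lys-4 at 9.42 FPKM, and the other 5 genes below 1 FPKM. FPKM is scaled by length, so these levels can be set beside each other. In the columns labelled hda-1, 9 genes reached 1 FPKM without atp-2 RNAi and all 10 with it, against 5 in both L4440 columns, 7 in dve-1 and 6 in dve-1+atp-2.

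**Figure D1:**
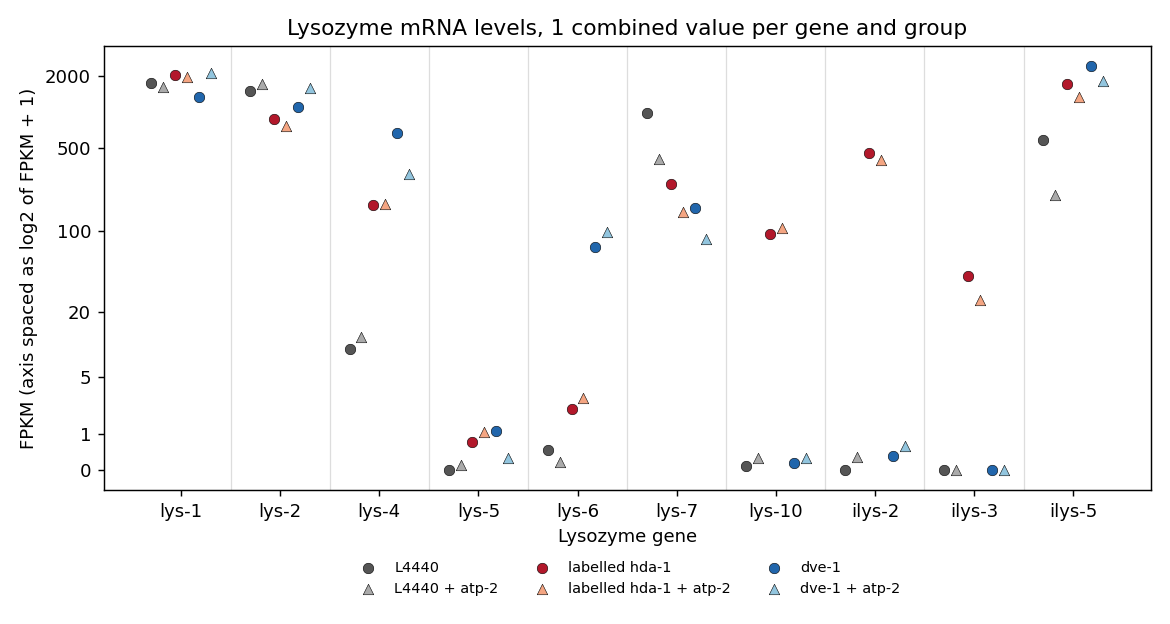
Level of each lysozyme gene in the 6 groups, in FPKM on an axis spaced as log2 of FPKM + 1, with 1 combined value per gene and group and no error bars because no value per library was used. Circles are groups without and triangles groups with atp-2 RNAi. lys-1 and lys-2 stayed at 762 FPKM or above throughout, whereas ilys-2, ilys-3 and lys-10 were above 20 FPKM only in the columns labelled hda-1, and lys-6 only in the dve-1 columns.

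lys-1 and lys-2 were the most abundant protist-type genes in all 6 columns. Both lie on chromosome V (ce11, the same assembly as WBcel235), lys-1 at 10277904 to 10279056 on the plus strand and lys-2 at 10280307 to 10281474 on the minus strand, 1251 nt apart. lys-1, which contributes to resistance against Serratia, read 1776 FPKM in L4440, 1636 in L4440+atp-2, 2072 and 1974 in the columns labelled hda-1 without and with atp-2, 1336 in dve-1 and 2124 in dve-1+atp-2. Its highest value was 1.59 times its lowest, and it was called in no comparison. lys-2, often used as a readout of the antibacterial response, read 1504, 1730, 881, 762, 1112 and 1592 FPKM in the same order. Both columns labelled hda-1 lay below the other 4 columns. lys-2 was called lower with atp-2 RNAi, at 44.0% of the L4440+atp-2 level (centred log2 ratio -1.31), and was not called without it (-0.93).

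lys-7 was lower in every RNAi column than in L4440. It encodes a lysozyme whose gene is a known target of DAF-16 and lies on chromosome V at 3481432 to 3482600, minus strand. Its levels were 979 FPKM in L4440, 408 in L4440+atp-2, 250.4 and 146 in the columns labelled hda-1 without and with atp-2, 157 in dve-1 and 85.3 in dve-1+atp-2. The highest value was 11.5 times the lowest, and within each of the 3 backgrounds the column with atp-2 RNAi was the lower one. Against L4440 the centred log2 ratio was -2.13 in the column labelled hda-1 (25.6% of the L4440 level) and -2.85 in dve-1 (16.1%). With atp-2 RNAi in both columns compared, it was -1.60 (35.8%) and -2.36 (20.9%). The mRNA of daf-16 itself read 54.5 to 86.7 FPKM over the 6 columns and 65.5 in L4440. Whether DAF-16 activity had a part in the lys-7 levels was not tested.

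ilys-5 was the most abundant invertebrate-type gene and was higher in all 4 columns labelled hda-1 or dve-1 RNAi than in both L4440 columns. It lies on chromosome X at 6533490 to 6536840, minus strand. It read 583 FPKM in L4440, 200.2 in L4440+atp-2, 1717 and 1333 in the columns labelled hda-1 without and with atp-2, 2442 in dve-1 and 1840.0 in dve-1+atp-2. In dve-1 it was the most abundant of the 10 genes. The level in the column labelled hda-1 was 2.95 times that in L4440 (centred log2 ratio 1.396), and the level in dve-1 was 4.19 times (1.85). With atp-2 RNAi these multiples were 6.66 (2.60) and 9.19 (3.08). The column L4440+atp-2 is the lowest of the 6 and is the lower column of both of the latter ratios.

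ilys-2, ilys-3 and lys-10 were detected at more than 1 FPKM only in the columns labelled hda-1. ilys-2 and ilys-3 lie 2235 nt apart on the plus strand of chromosome IV, at 2467678 to 2468879 and 2464456 to 2465443. ilys-2 was listed at 0 in L4440 and read 0.283 FPKM in L4440+atp-2, 454 and 396 in the columns labelled hda-1 without and with atp-2, 0.318 in dve-1 and 0.580 in dve-1+atp-2. The 3 low values other than 0 stood for an estimated 2 to 4 fragments each, so no fold is given. On the scale with the pseudocount, ilys-2 ranked 2 of the 13337 kept genes in the column labelled hda-1 over L4440, and 1 of the 12547 kept protein-coding genes with at least 300 nt of exon. ilys-3, which encodes a lysozyme of the pharynx and intestine that helps to break up ingested bacteria, read 41.1 and 25.5 FPKM in the columns labelled hda-1 and was listed at 0 in the other 4 columns. lys-10 lies apart from both, on the plus strand of chromosome IV at 8332826 to 8333518. Its levels were 0.0856 FPKM in L4440, 0.258 in L4440+atp-2, 93.5 and 107 in the columns labelled hda-1 without and with atp-2, 0.151 in dve-1 and 0.246 in dve-1+atp-2. The 4 low values stood for an estimated 1 to 3 fragments, and in the same ranking over L4440 lys-10 was at 7 of the 13337 genes. For each of the 3 genes, both columns labelled hda-1 lay above the other 4, and in the dve-1 columns no more than an estimated 4 fragments were seen.

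lys-4, lys-5 and lys-6 are neighbours on the minus strand of chromosome IV, at 11621429 to 11623174, 11624252 to 11625582 and 11626910 to 11627947, and lys-4 and lys-6 were higher in both dve-1 columns than in L4440, while lys-5 was barely detected. lys-4 read 9.42 FPKM in L4440, 12.1 in L4440+atp-2, 165 and 169.8 in the columns labelled hda-1 without and with atp-2, 669 in dve-1 and 304 in dve-1+atp-2. All 4 columns labelled hda-1 or dve-1 RNAi were above both L4440 columns, and the dve-1 columns were above those labelled hda-1. The multiples over L4440 were 17.5 (centred log2 ratio 3.83) in the column labelled hda-1 and 70.98 (5.79) in dve-1, and with atp-2 RNAi the centred log2 ratios were 3.58 and 4.42. lys-6 read 0.469 FPKM in L4440, 0.163 in L4440+atp-2, 2.26 and 2.99 in the columns labelled hda-1 without and with atp-2, 73.1 in dve-1 and 97.3 in dve-1+atp-2. The dve-1 columns stood apart from the other 4 (centred log2 ratio over L4440 of 5.44 without and 6.29 with atp-2 RNAi), while the columns labelled hda-1 rested on an estimated 23 and 32 fragments and those of L4440 on 5 and 2. lys-5 stayed near the limit of detection, listed at 0 in L4440 and at 0.0923 FPKM in L4440+atp-2, 0.697 and 1.07 in the columns labelled hda-1, 1.12 in dve-1 and 0.264 in dve-1+atp-2. These are estimates of at most 12 fragments, and at this depth no difference between the columns could be called for lys-5.

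Without atp-2 RNAi, 5 of the 10 genes (lys-4, lys-10, ilys-2, ilys-3 and ilys-5) were called higher in the column labelled hda-1 than in L4440, where 8.77% of all kept genes were called higher, and lys-7 was called lower (background 3.25%). In dve-1, 3 of the 10 genes (lys-4, lys-6 and ilys-5) were called higher (background 7.08%) and again lys-7 was called lower (2.23%). With atp-2 RNAi in both columns, the genes called higher carried the same 5 names in the column labelled hda-1 (background 8.43%) and the same 3 names in dve-1 (4.81%). Called lower were lys-2 and lys-7 in the column labelled hda-1 (background 4.34%) and lys-7 in dve-1 (2.39%). The uncentred median log2 ratio of the 10 genes was 1.35 in the column labelled hda-1 and 0.24 in dve-1, beside 0.16 and 0.22 for all kept genes. With atp-2 RNAi it was 2.25 and 0.26, beside 0.13 and 0.12. The 10 genes were chosen with earlier results of these data known, so these counts and medians are a description and not a test. lys-10, ilys-2 and ilys-3 were kept only through the columns labelled hda-1 and lys-6 only through those of dve-1, and lys-5 was not kept. For the 3 kept genes among the 6 other lysozyme genes, the median was 0.04 in the column labelled hda-1 and -0.84 in dve-1. With atp-2 RNAi it was -0.18 and -0.46. The comparisons of the columns labelled hda-1 and of dve-1 share the L4440 columns, so the names they have in common are given side by side only.

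**Figure D2:**
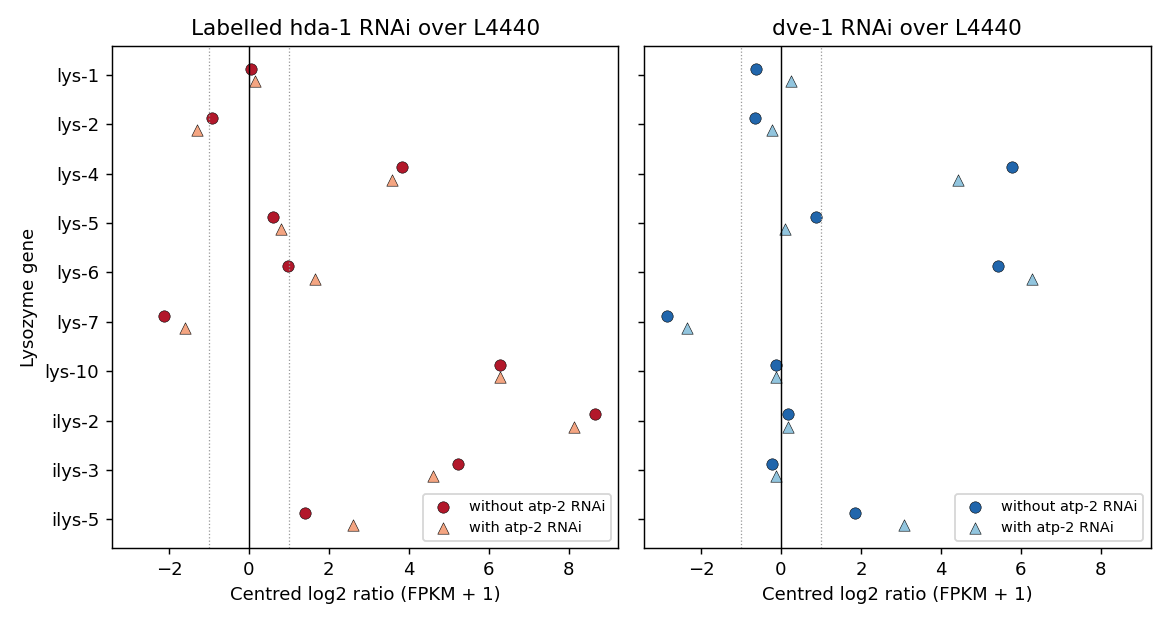
Centred log2 ratio (FPKM + 1) of each lysozyme gene in the columns labelled hda-1 (left) and dve-1 RNAi (right) over L4440, without atp-2 RNAi (circles) and with atp-2 RNAi in both columns compared (triangles). Dotted lines mark -1 and 1, each point is 1 ratio of combined values without error bars, and the positions of lys-5, lys-6, lys-10, ilys-2 and ilys-3 depend on the pseudocount because their L4440 levels were below 1 FPKM. lys-10, ilys-2 and ilys-3 lie far to the right on the left side only, lys-6 farther on the right side, and lys-7 lies below -1 on both.

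The move from nearly undetected to clearly detected was uncommon among protein-coding genes. Of 7822 protein-coding genes with at least 300 nt of exon that were below 1 FPKM in L4440, 43 (0.550%) reached 20 FPKM in the column labelled hda-1 and 40 (0.511%) reached it in dve-1. Among the 5 lysozyme genes below 1 FPKM in L4440, lys-10, ilys-2 and ilys-3 reached 20 FPKM in the former and lys-6 in the latter. With atp-2 RNAi, 37 (0.492%) and 26 (0.346%) of 7521 genes did so, and the lysozyme genes were the same in each background. The limits of 1 and 20 FPKM were chosen with the lysozyme values known, so these counts describe the table and are not a test.

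The invertebrate-type genes made up a larger share of the summed mRNA of the 10 genes in the columns labelled hda-1 or dve-1 RNAi than in L4440. The protist-type genes summed to 4269 FPKM in L4440, 3787 in L4440+atp-2, 3465 and 3162 in the columns labelled hda-1 without and with atp-2, 3349 in dve-1 and 4202 in dve-1+atp-2. The invertebrate-type genes summed to 583, 200.5, 2213, 1754, 2442 and 1841 FPKM in the same order. Their share of the summed level was thus 12.01% in L4440 and 5.03% in L4440+atp-2, against 39.0%, 35.7%, 42.2% and 30.5% in the other 4 columns. Over all 16 lysozyme genes of the worm, which adds the abundant protist-type gene lys-8, it was 10.3% and 4.58% in the L4440 columns and 34.2%, 31.6%, 39.7% and 28.5% in the others. Among the 10 genes, the share in the dve-1 columns was ilys-5 alone to within rounding, and in the columns labelled hda-1, ilys-5 was 30.2% and 27.1% of the total and ilys-2 8.001% and 8.048%. The share of lys-7 was 20.2% in L4440 and at most 4.41% in the columns labelled hda-1 or dve-1 RNAi. The total of all 10 genes varied less, from 0.430% of the summed FPKM of the column in L4440+atp-2 to 0.619% in dve-1+atp-2, with 0.529% in L4440.

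**Figure D3:**
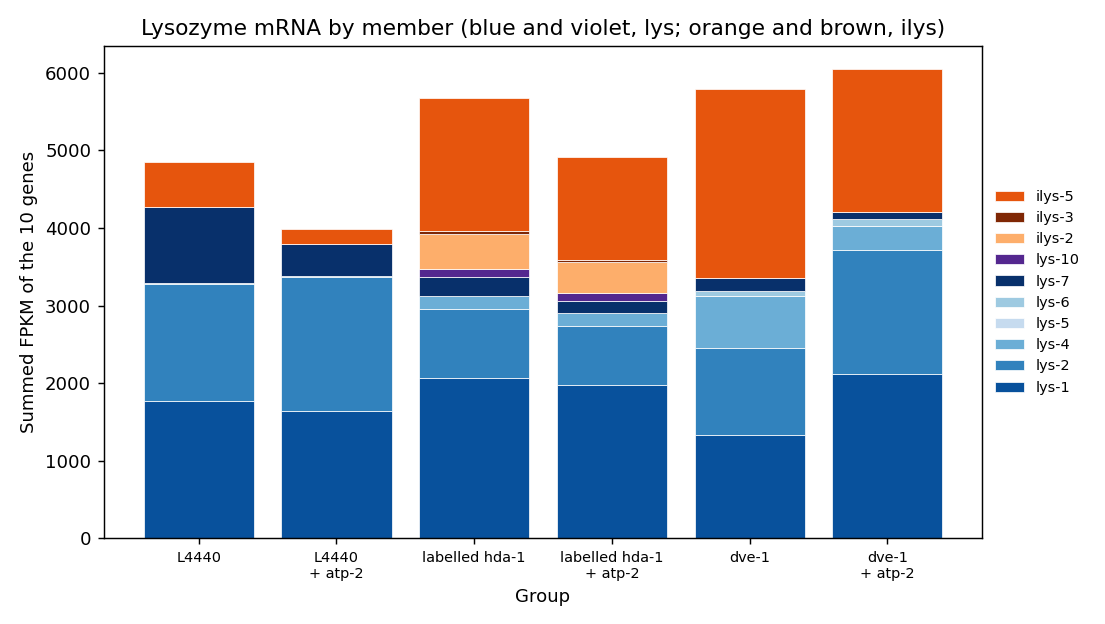
Summed FPKM of the 10 lysozyme genes in each of the 6 groups, stacked by gene from lys-1 at the bottom to ilys-5 at the top, with 1 combined value per gene and group. The orange and brown segments (invertebrate type) reach 12.01% and 5.03% of the bar in the L4440 columns and 30.5% to 42.2% in the other 4 columns.

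Against the columns without it, atp-2 RNAi was accompanied by few lysozyme calls. In L4440, none of the 10 genes was called higher after atp-2 RNAi (background 1.89%), and lys-7 and ilys-5 were called lower (background 0.652%), at 41.6% and 34.4% of their L4440 levels (centred log2 ratios -1.38 and -1.65). In the columns labelled hda-1, 0 of the 10 genes were called higher (background 0.742%) and 0 lower (0.645%). In dve-1, none was called higher (background 0.997%) and lys-4 was called lower (1.56%), at 45.4% of its level without atp-2 RNAi (centred log2 ratio -1.16). lys-1 and lys-2, the abundant pair, had centred log2 ratios of -0.23 and 0.09 in L4440, -0.13 and -0.27 in the columns labelled hda-1, and 0.64 and 0.49 in dve-1. The uncentred median log2 ratio of the 10 genes was 0.06, -0.13 and 0.06 in the 3 backgrounds, beside 0.11, 0.06 and 0.02 for all kept genes.

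The size of the difference with atp-2 RNAi was then compared between backgrounds, by subtracting its log2 ratio in L4440 from that in the other background. Both of these interactions share the L4440 columns. ilys-5 was the only one of the 10 genes called higher in the columns labelled hda-1 (1.21 after centring, background 1.2%) and in dve-1 (1.23, background 1.14%): its centred log2 ratio with atp-2 RNAi was -1.65 in L4440 and -0.43 in both other backgrounds. None was called lower in the columns labelled hda-1 (background 2.35%), and lys-4 was called lower in dve-1 (-1.36 after centring, background 2.77%), where its ratio was -1.16 against 0.22 in L4440. The low start of lys-4 in L4440, 9.42 FPKM, contrasts with 669 FPKM in dve-1. For lys-7 the interactions were 0.53 and 0.49, and neither was called.

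**Figure D4:**
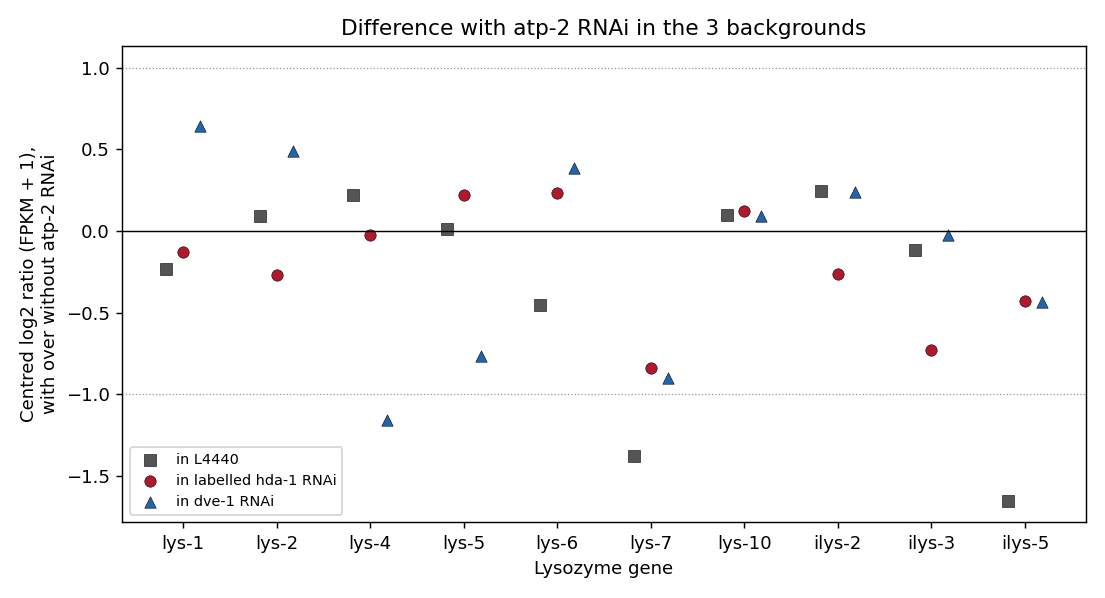
Centred log2 ratio (FPKM + 1) of each lysozyme gene with over without atp-2 RNAi, in L4440 (squares), in the columns labelled hda-1 (circles) and in dve-1 RNAi (triangles). Dotted lines mark -1 and 1, and each point is 1 ratio of combined values without error bars. lys-7 and ilys-5 in L4440 and lys-4 in dve-1 lie below -1, and no point lies above 1.

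The 6 lysozyme genes of C. elegans outside the 10 were read in the same way. lys-3, 626 nt from lys-2 and on the same strand, read 1.20 FPKM in L4440, 1.63 in L4440+atp-2, 68.9 and 41.2 in the columns labelled hda-1 without and with atp-2, 0.224 in dve-1 and 0.917 in dve-1+atp-2. It was called higher in the columns labelled hda-1 without atp-2 RNAi (centred log2 ratio 4.83) and with it (3.88), as ilys-2, ilys-3 and lys-10 were. lys-8, a lysozyme gene of the intestine, read 965, 723, 753, 625, 379.7 and 448 FPKM, was like lys-7 highest in L4440, and was called lower in dve-1 (-1.56). ilys-4 stayed between 13.2 and 16.8 FPKM and overlaps atic-1 on the opposite strand, whose reads cannot be told apart without strand information. lys-9 and ilys-1 were listed at 0 in all columns, and ilys-6 was listed at 0 except for 0.404 FPKM in the column labelled hda-1 and 0.714 in dve-1.

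Neighbouring lysozyme genes differed from each other. Among the kept protein-coding genes beside the 10 that are not lysozyme genes, only 3 near lys-10 were called. The noncoding RNA gene linc-38, 551 nt from lys-1, was called higher in the column labelled hda-1 (background 8.77%), at 9.03 FPKM against 1.74 in L4440. With atp-2 RNAi it read 4.62 FPKM against 1.29 and was not called. In the lys-4 group, lys-5 stayed at 1.12 FPKM or less between lys-4 and lys-6, and of the genes beyond lys-6, F58B3.4 stayed at 9.97 to 15.8 FPKM and mars-1, which encodes a methionyl-tRNA synthetase, at 45.3 to 64.8 FPKM. Beyond lys-4, dsl-5 stayed at 0.0690 FPKM or less. The pseudogene Y24F12A.4, 3445 nt from lys-4, was listed at 0 in L4440 and read 0.0388 FPKM in L4440+atp-2, 1.59 and 1.36 in the columns labelled hda-1 without and with atp-2, 2.72 in dve-1 and 1.73 in dve-1+atp-2, so that it was, at low levels, highest in dve-1 as lys-4 was. ilys-1, 1535 nt from ilys-2 on the same strand, was listed at 0 throughout. On the far side of ilys-3, cdh-10 read 0.995 FPKM in L4440 and 0.805 in L4440+atp-2. It read 2.83 and 2.41 FPKM in the columns labelled hda-1 without and with atp-2, 2.68 in dve-1 and 2.35 in dve-1+atp-2. Within 10 kb of the 10 genes lay 27 other protein-coding genes with at least 300 nt of exon, of which 11 were kept. The rest could not be called. Of the 11, F35H10.3, his-31 and his-32 were called higher in the column labelled hda-1 without atp-2 RNAi (background 8.77%). With atp-2 RNAi, his-31 and his-32 were called higher (background 8.43%). None was called in any comparison of dve-1 or atp-2 RNAi, where backgrounds ran from 0.645% to 7.08%. F35H10.3, his-31 and his-32 are neighbours of lys-10. his-32 lies 787 nt from lys-10 and read 68.1 and 67.0 FPKM in the columns labelled hda-1 and at most 0.147 in the others, and his-31, 154 nt away, read 10.7 and 13.7 FPKM and at most 0.550. The other histone genes of that group, his-29, his-30, his-33 and his-34, were listed at 0 in all columns. Histone copies are nearly identical and only uniquely mapping reads were used, so the values of single histone genes are uncertain.

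**Figure D5:**
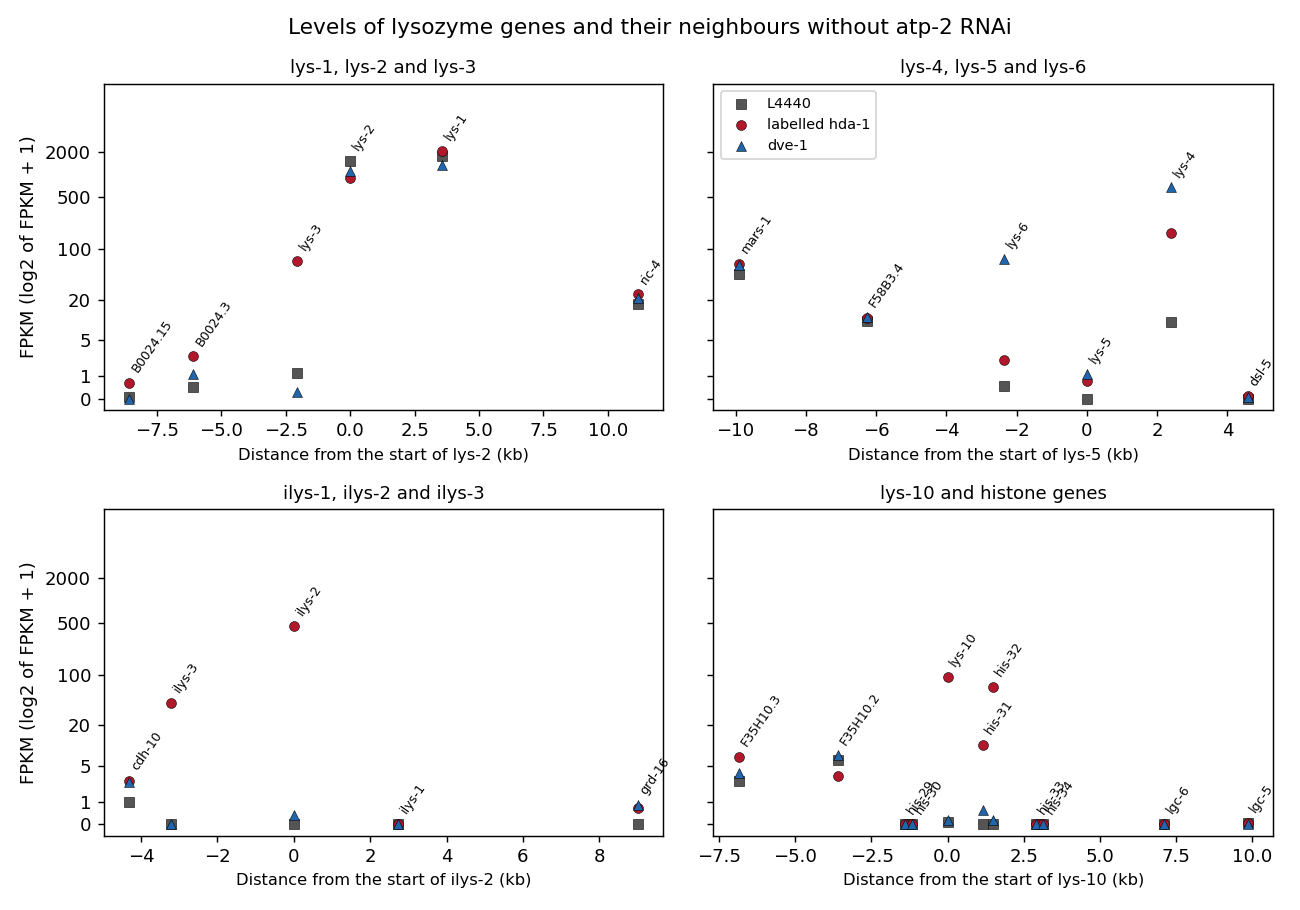
Levels of lysozyme genes and of the protein-coding genes within 10 kb of them, in FPKM on an axis spaced as log2 of FPKM + 1. Groups are L4440 (squares), the column labelled hda-1 (circles) and dve-1 (triangles), all without atp-2 RNAi. The horizontal axis is the distance in kb between the gene ends at which transcription starts, taken by strand. It is positive in the direction of transcription of the gene placed at 0. Circles stand alone high at lys-3, ilys-2, ilys-3, lys-10 and his-32, the triangle stands alone high at lys-6, lys-4 has a high triangle and a circle between it and the square, and lys-5 and ilys-1 stay at or near 0 beside them.

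ilys-2 had the widest range of the 10 genes, and the kept protein-coding genes with the most similar profile were taken by the root mean square difference of centred log2(FPKM + 1) over the 6 columns. The 5 nearest genes were C17G1.1 (0.81), pud-3 (0.82), lys-10 (0.94), pud-4 (0.96) and his-59 (1.12), where pud stands for protein up-regulated in daf-2. C17G1.1 read 110 FPKM and 109 in the columns labelled hda-1 and at most 0.164 in the others, and pud-3 read 1505 and 843 FPKM against 1.53 to 8.39 in the others. They were picked for a profile like that of ilys-2, so their high values in the columns labelled hda-1 follow from the selection.

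The same measure was applied to the other kept members after their values had been seen. The likenesses given below likewise follow from the selection. The genes nearest to lys-4 were clec-5 (0.40), col-107 (0.43), clec-60 (0.49), clec-61 (0.50) and col-71 (0.50), that is 3 C-type lectin and 2 collagen genes. clec-61 read 0.0433 FPKM in L4440, 0.166 in L4440+atp-2, 37.7 and 21.99 in the columns labelled hda-1 without and with atp-2, 76.1 in dve-1 and 24.2 in dve-1+atp-2, so that, like lys-4, it was highest in dve-1 and lower there with atp-2 RNAi. For lys-7 the nearest gene was C23H4.3 (0.43), which like it was highest in L4440, at 16.5 FPKM, and lowest in dve-1+atp-2, at 2.90 FPKM. For ilys-5 the nearest 3 were cyp-35A3 (0.33), F28B12.1 (0.39) and clec-52 (0.41).

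Regulators of antibacterial defence were read from a list of 24 genes, which held the p38, insulin-like, TGF-beta, ERK and Wnt pathways and intestinal transcription factors. Their summed level ran from 891 to 958 FPKM. In 5 of the 7 comparisons 0 of the 24 were called in either direction, beside backgrounds of 0.645% to 8.77%. For atp-2 RNAi over the columns without it, backgrounds were at most 1.89%, so 0 calls lay near them. One exception was elt-2, the GATA factor of the intestine, called higher in dve-1 (background 7.08%) at 16.7 FPKM against 7.61 in L4440. The other was fshr-1, a leucine-rich repeat receptor, called lower in the column labelled hda-1 with atp-2 RNAi (background 4.34%). It read 16.1 FPKM there against 34.8 in L4440+atp-2. The kinase gene pmk-1 stayed between 14.7 and 16.8 FPKM.

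Of 18 other antibacterial effector genes, 16 were kept. In the column labelled hda-1, 5 were called higher and 3 lower (background 8.77% and 3.25%), and in dve-1 5 higher and 1 lower (7.08% and 2.23%). With atp-2 RNAi these counts were 6 and 3 (8.43% and 4.34%), and 5 and 1 (4.81% and 2.39%). The uncentred median log2 ratio of the kept genes of the list without atp-2 RNAi was 0.19 and 0.39, beside 0.16 and 0.22 for all kept genes. Among them, 3 genes were, like lys-4, highest in dve-1 and lowest in the L4440 columns. cpr-1, a cathepsin B-like protease, read 22.2 FPKM in L4440, 22.4 in L4440+atp-2, 1687 and 1552 in the columns labelled hda-1 without and with atp-2, 2123 in dve-1 and 1008 in dve-1+atp-2. spp-12, a saposin-like gene, read 0.672, 0.604, 60.5, 48.8, 960 and 321 FPKM, and clec-60, a C-type lectin, read 0.139, 0.123, 34.5, 23.2, 103 and 24.0 FPKM. These 3 genes were the ones of the list called lower with atp-2 RNAi in dve-1 (background 1.56%), as lys-4 was. In the opposite direction, spp-1, another saposin-like gene, read 333 FPKM in L4440 and 39.5 in dve-1, and abf-1, an antibacterial factor gene, read 18.6 FPKM in L4440 and was listed at 0 in the column labelled hda-1. With atp-2 RNAi in L4440, spp-8 and clec-86 were called lower (background 0.652%) and none higher (1.89%).

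Marker genes of the tissues in which lysozymes are found did not stay level in every column. All 14 intestine markers were kept, none was at 0, and they summed to between 9116 FPKM in L4440+atp-2 and 11254 in the column labelled hda-1. In dve-1, 4 of the 14 (pho-1, mtl-2, gly-19 and cpr-6) were called lower (background 2.23%). Only elt-2 was called higher, near the background of 7.08%. In the same column lys-7 and lys-8 were lower and lys-4, lys-6 and ilys-5 higher. With atp-2 RNAi in both columns compared, pho-1, mtl-2 and gly-19 were called lower in dve-1 (background 2.39%). In the columns labelled hda-1, mtl-2 was called higher without and with atp-2 RNAi (8.77% and 8.43%), and ges-1 lower with it (4.34%). For atp-2 RNAi itself, mtl-2 was called lower in L4440 (0.652%) and dve-1 (1.56%), and pept-1 higher in dve-1 (0.997%). The largest part of the intestine sum was asp-1 (5009 FPKM in L4440). Of the 13 pharynx markers 12 were listed, with sums of 122 to 163 FPKM, and phat-1, phat-5 and abu-1 were at 0 in some columns. The largest part of every pharynx sum was tni-4, which was lowest under the hda-1 label (47.3 and 49.4 FPKM). Over the 8 kept pharynx markers, however, the median log2 ratio before centring was 0.43 there without atp-2 RNAi and 0.50 with it. All kept genes had 0.16 and 0.13. For dve-1 the pharynx medians were 0.17 and -0.07, beside 0.22 and 0.12, and 0 of the 8 were called in any comparison. The 12 germline markers summed to 127 FPKM in L4440 and 184.7 in L4440+atp-2, 143 and 215 in the columns labelled hda-1, and 186 and 234 in the dve-1 columns, so that germline RNA was present in all groups. The summed level was higher with atp-2 RNAi in each background, where lys-7 and ilys-5 were lower. However, 0 of the 12 markers were called in any comparison, beside shares over all kept genes of 0.645% to 8.77%. Single markers such as spe-26 did not share the direction in L4440 and dve-1. Body wall muscle markers summed to 1483 to 1919 FPKM and neuron markers to 316 to 399.9 FPKM. Epidermis markers summed to 2413 to 4039 FPKM, lowest in dve-1. Nearly all of the epidermis sum was col-19 (3993 FPKM in L4440), the only epidermis marker kept. Most of the neuron sum was snb-1 (293 FPKM in L4440). Of the 4 neuron markers, unc-13 was called higher in dve-1 without (background 7.08%) and with atp-2 RNAi (4.81%). The uncentred median log2 ratio of the neuron markers was 0.51 and 0.62 in the columns labelled hda-1 without and with atp-2 RNAi. In the dve-1 columns it was 0.36 and 0.25. The part of tissue composition in the lysozyme differences was not tested.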

How the data were processed

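The 10 members and all gene lists were chosen with earlier results of these data known. Per the labels, the worms were glp-4(bn2), and atp-2 RNAi bacteria were seeded 30 h later. The study's text speaks of wild-type animals and gives another timing, and which applied was not settled. Whether the 2 libraries per group represent separate cultures is not given in the sources used here, nor is the strandedness.

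The authors used TopHat2 2.1.1 to align reads to ce11, retained those that mapped uniquely and computed the deposited FPKM with Cufflinks, giving 1 value per gene and group. The table gives no counts or values per library. Of 46245 genes, 45990 matched the Ensembl annotation (release 115) by identifier. FPKM were used as deposited, with a pseudocount of 1, a minimum mean of 1 FPKM, and calls at 2-fold and 5 FPKM (Python 3.11.15, pandas 2.3.3). Named were all members, the other lysozyme genes, the RNAi targets, up to 4 called genes per list and the 5 genes nearest in profile to the member of widest range. Genes nearest to other members, single neighbours and further list genes were named after their values were seen. The depth estimate per column used the steps seen among low FPKM of genes whose exons span 1000 to 1500 nt. Fragments behind single lysozyme genes were estimated in a like way, from protein-coding genes within 15% of the exon length of each. Both estimates cover counting error only. Calls were tested on simulated data with 200 changed genes. Alternatives were 2 rescalings, no filter, pseudocounts of 0.1 and 5, and calls at 1.5-fold and 3-fold.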

Additional observations from a re-analysis of the deposited data

Results flagged for a closer look

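lys-4 stood out because its atp-2 RNAi ratio pointed in opposite directions in 2 backgrounds. Before centring, the log2 ratio was 0.33 in L4440 (9.42 to 12.1 FPKM) and -1.14 in dve-1 (669 to 304 FPKM), a difference of -1.47. With 1 combined value per group this difference was not tested.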

How the results depend on the processing

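No paired analysis was possible because both libraries of each group were combined into 1 value, and for the same reason leaving out a replicate was not run. Of the 90 log2 ratios and interactions of the 10 genes, every call stayed as given under median-of-ratios scaling, upper-quartile scaling, no filter and a pseudocount of 5, and none reversed in direction among calls under any of the 7 settings. Rescaling moved the median of all kept genes by -0.20 to 0.12 log2. Over all kept genes, the calls higher and lower became 200 and 128 under median-of-ratios scaling instead of 252 and 87 for atp-2 RNAi in L4440, 81 and 122 instead of 99 and 86 on the background labelled hda-1, and 777 and 462 instead of 944 and 298 for dve-1 over L4440. With a pseudocount of 0.1, 2 more interactions were called (ilys-2 in the columns labelled hda-1, -2.14, and lys-6 in dve-1, 1.53), which brought the interaction calls in the columns labelled hda-1 from 1 to 2. At 1.5-fold, the number of members called became 2 instead of 0 for atp-2 RNAi on the background labelled hda-1, 3 instead of 1 for atp-2 RNAi in dve-1, and 2 instead of 1 and 4 instead of 2 for the interactions in the columns labelled hda-1 and in dve-1. At 3-fold, it became 0 for atp-2 RNAi in L4440 (from 2) and in dve-1 (from 1) and 0 for both interactions. lys-2 in hda-1+atp-2, ilys-5 in the column labelled hda-1 and lys-7 in hda-1+atp-2 were also not called at 3-fold. Depth limits lys-5 and the low columns of lys-6, lys-10, ilys-2 and ilys-3, which rest on a few fragments.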
